A study of Rattus norvegicus with 16 samples.

Results

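The CXC chemokines are small secreted proteins that recruit white blood cells, and 10 of their genes were followed here in rat liver: Cxcl1, Cxcl2, Cxcl3, Cxcl9, Cxcl10, Cxcl11, Cxcl12, Cxcl13, Cxcl14 and Cxcl16. They were chosen by symbol, and all 10 were found among the 17055 gene symbols measured. The livers came from male Sprague-Dawley rats, 10 weeks old, that underwent cecal ligation and puncture (CLP), a procedure that spills gut contents into the abdomen and causes sepsis, or a control operation in which the cecum was only lifted out and returned. Both operations were done under isoflurane, an inhaled anesthetic, or propofol, an intravenous one, which gave 4 groups of 4 RNA-sequencing libraries. Under isoflurane, libraries 1 to 4 were septic (Isoflurane-Sepsis) and libraries 5 to 8 were controls (Isoflurane-Control). Under propofol, libraries 9 to 12 were septic (Propofol-Sepsis) and libraries 13 to 16 were controls (Propofol-Control). Each library pooled liver RNA of 3 rats, collected 8 h after surgery, so the spread between libraries is that between pools. All rats breathed pure oxygen and stayed anesthetized throughout, and no unanesthetized group was analysed here. Rats given propofol were first put to sleep with ketamine-xylazine and those given isoflurane with isoflurane, so the maintenance and induction drugs cannot be told apart.

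CXC chemokines are named for a pair of cysteines near the amino end that are separated by a single residue. They bind receptors with 7 membrane-spanning helices on the responding cell and are held on vessel walls by heparan sulfate. Cxcl1, Cxcl2 and Cxcl3 attract neutrophils through Cxcr2, and Cxcl9, Cxcl10 and Cxcl11 are interferon-inducible and attract activated T cells and natural killer cells through Cxcr3. Cxcl12 binds Cxcr4 and Cxcr7, Cxcl13 guides B cells through Cxcr5, and Cxcl16 is made as a membrane protein whose receptor is Cxcr6. In an inflamed liver these signals come from Kupffer cells, endothelium, stellate cells and hepatocytes.

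According to RefSeq (GRCr8), 7 of the 10 genes lie on chromosome 14, where Cxcl9, Cxcl10 and Cxcl11 are neighbours and Cxcl1, Cxcl2 and Cxcl3 are neighbours, while Cxcl12, Cxcl14 and Cxcl16 lie on chromosomes 4, 17 and 10. RefSeq promoter sequence was matched for 9 of the 10 genes, all but Cxcl3. The 250 bases before each start site were searched on both strands for GGG and TTCC with any 3 bases between them, a spelling of the NF-kB site, and for TTTC repeated after any 2 bases, a spelling of the interferon-response element; both spellings were chosen after the sequences were seen. The first was found in 4 of the 9 promoters (Cxcl1, Cxcl2, Cxcl10 and Cxcl11) against 4.53% of all 33469 promoters in the table. The second was found in 1 of the 9, Cxcl10, against 3.41% of all promoters. The 4 promoters with a match are shown because Cxcl1, Cxcl2, Cxcl10 and Cxcl11 share the first spelling and differed in their response to sepsis, with the matches in capitals, each read 5′ to 3′ toward its start site and ending at the base before it. Overlapping matches on opposite strands run together, and the first capitals of Cxcl10 are the interferon-type match. Cxcl1 is at chr14:17479322-17479431 on the minus strand, Cxcl2 at chr14:17467256-17467365 on the minus strand, Cxcl10 at chr14:15988816-15989065 on the plus strand and Cxcl11 at chr14:15973618-15973727 on the plus strand, all in GRCr8.
Cxcl1: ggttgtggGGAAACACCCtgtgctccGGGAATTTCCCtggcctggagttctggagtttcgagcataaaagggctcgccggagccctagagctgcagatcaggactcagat
Cxcl2: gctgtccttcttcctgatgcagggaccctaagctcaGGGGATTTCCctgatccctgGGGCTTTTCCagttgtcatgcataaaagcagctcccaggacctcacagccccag
Cxcl10: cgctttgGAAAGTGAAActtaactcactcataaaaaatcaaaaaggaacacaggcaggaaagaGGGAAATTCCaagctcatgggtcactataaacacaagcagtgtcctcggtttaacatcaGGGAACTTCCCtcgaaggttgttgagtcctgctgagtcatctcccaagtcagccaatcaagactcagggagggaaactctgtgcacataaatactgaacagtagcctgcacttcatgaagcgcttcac
Cxcl11: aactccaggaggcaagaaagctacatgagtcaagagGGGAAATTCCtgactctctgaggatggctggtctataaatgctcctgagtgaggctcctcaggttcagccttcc
A match of letters is a description of the sequence and not a measured binding site.

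Libraries held 14199422 to 49937173 reads on genes. Levels are given as CPM, read counts scaled to a common library size, after TMM scaling, which corrects for differences in RNA makeup. Because gene lengths were not used, CPM values compare samples for one gene and not genes with each other. The hepatocyte transcript Alb (albumin) lay between 54371 and 93955 CPM in every library. Library 10, of the Propofol-Sepsis group, also held brain transcripts: of 15 brain markers, 14 were highest there, and their summed level was 409.7 CPM against 6.64 to 29.1 CPM in the other 15 libraries. Several results that rest on library 10, or on libraries 4 and 15, which stood apart in single members, are given with and without them. In whole liver, fewer cells of a type and less RNA per cell cannot be told apart.

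The first question was how sepsis changed these transcripts under each anesthetic. Under isoflurane, 9 of the 10 members had enough reads for the test (edgeR quasi-likelihood, Benjamini-Hochberg adjusted p under 0.05), and 6 rose, 2 fell and 1 did not pass. The share of all 10361 genes tested that passed was 50.0%, with 25.7% higher and 24.4% lower. Under propofol, 4 of the 9 tested members rose, 1 fell and 4 did not pass, against 42.1% of all 10348 genes, 20.4% higher and 21.7% lower. The median log2 fold change of the tested members was 1.26 under isoflurane and 0.66 under propofol, beside medians of 0.01 and 0.00 for all genes. Cxcl2 under both anesthetics and Cxcl10 under isoflurane had enough reads for the test only through their septic libraries. A rise was therefore favoured for them in advance, and the counts and medians that include them are a description. Cxcl2, Cxcl10, Cxcl14 and Cxcl16 rose and Cxcl12 fell under both anesthetics. The CPM ranges of septic and control libraries did not overlap for 9 of the 10 members under isoflurane, against 48.7% of genes tested, and for 6 under propofol, against 42.2%. The isoflurane count includes Cxcl3, which was not tested, while the shares cover tested genes only. The propofol count includes Cxcl11, whose highest septic and lowest control libraries were almost level.

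**Figure D1:**
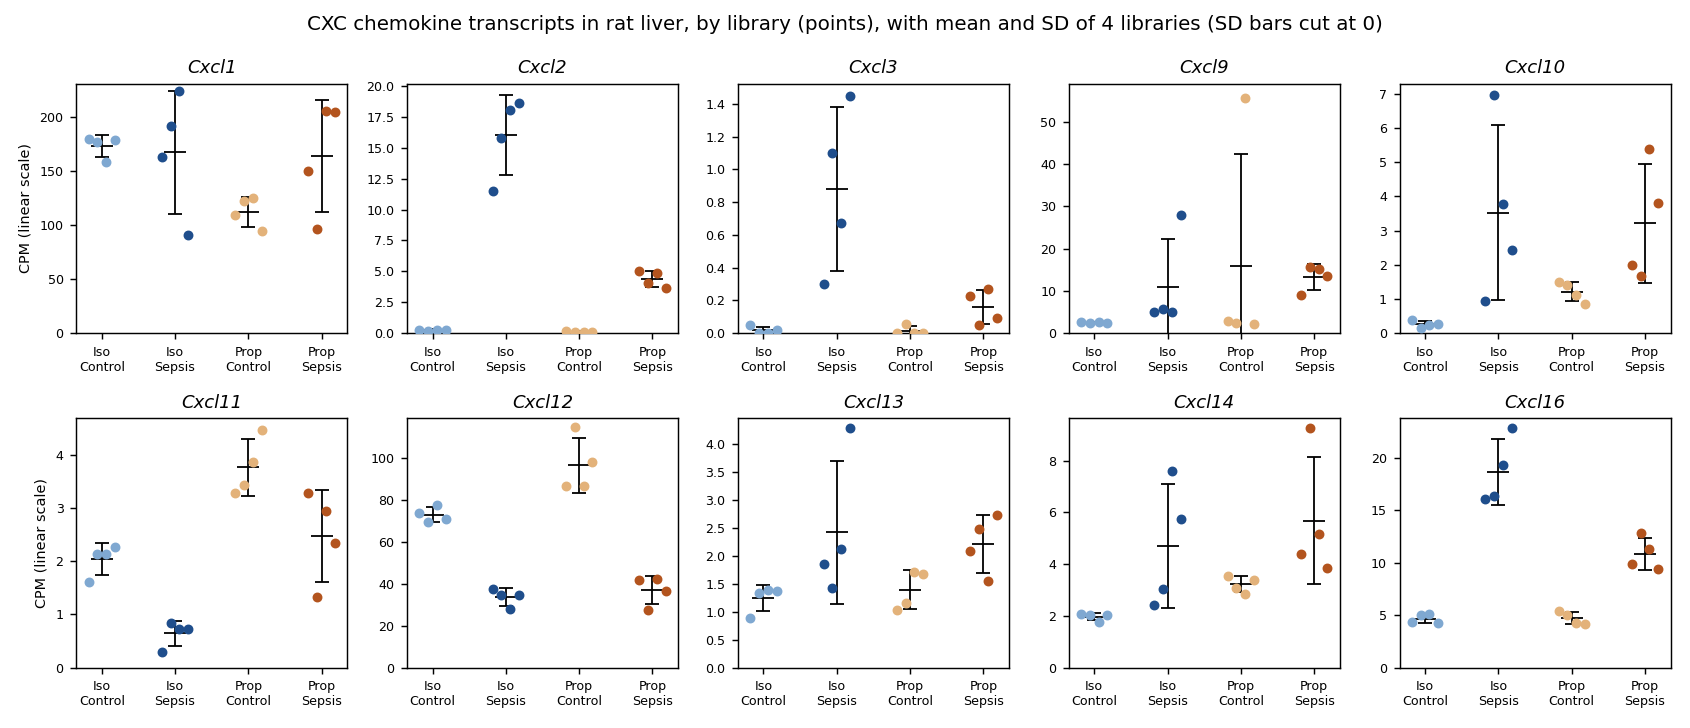
CPM (linear axis, a separate scale in each panel) of the 10 CXC chemokines in the 16 libraries; points are libraries in order of number, and bars are the mean ± SD of 4 libraries, cut at 0. Cxcl2 was under 0.3 CPM in every control library and between 3.62 and 18.6 CPM in every septic one, while single libraries stood far from their groups for Cxcl9.

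Cxcl2, a neutrophil attractant made rapidly by macrophages, showed the largest fold change of the tested members under both anesthetics. Its levels were 0.282, 0.198, 0.279 and 0.208 CPM in Isoflurane-Control and 11.5, 15.8, 18.1 and 18.6 CPM in Isoflurane-Sepsis. They were 0.129, 0.116, 0.0952 and 0.048 CPM in Propofol-Control and 5.03, 4.05, 4.86 and 3.62 CPM in Propofol-Sepsis. Every septic library lay above every control library, and the 4 groups did not overlap one another. The log2 fold change was 6.06 (SE 0.236, adjusted p = 6.4e-06) under isoflurane and 5.44 (SE 0.277, adjusted p = 3.9e-06) under propofol. The control level rested on few reads, 26 in all under isoflurane and 7 under propofol.

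Cxcl1, the close relative of Cxcl2, behaved differently. It measured 179.5, 176.6, 158.1 and 178.6 CPM in Isoflurane-Control and 163.4, 191.9, 224.0 and 90.7 CPM in Isoflurane-Sepsis. Septic libraries lay on both sides of the controls, and the log2 fold change of -0.04 (SE 0.234, adjusted p = 0.894) did not pass. In Propofol-Control it measured 109.1, 122.0, 124.7 and 94.3 CPM and in Propofol-Sepsis 149.9, 96.3, 205.4 and 204.4 CPM. Library 10 was the septic library that lay among the controls, and the log2 fold change was 0.54 (SE 0.212, adjusted p = 0.0657). Without library 10 the log2 fold change was 0.73 and passed (adjusted p = 0.00144), and it also passed with all 8 libraries in DESeq2 (adjusted p = 0.0365).

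Cxcl3, the third neutrophil attractant of this cluster, was close to the detection limit. Isoflurane-Sepsis libraries held 6, 17, 13 and 24 reads and Isoflurane-Control libraries 1, 0, 0 and 1. Propofol-Sepsis libraries held 4, 1, 5 and 3 reads and Propofol-Control libraries 0, 1, 0 and 0. Under isoflurane every septic library exceeded every control library, while under propofol library 10, with 1 read, did not. Per read on genes, the septic to control ratio was 44.7 under isoflurane (95% exact interval 11.8 to 377.2) and 10.3 under propofol (1.55 to 439.6), where the intervals cover counting error only. The gene had too few reads for the edgeR test with its filter; without the filter the log2 fold change was 5.18 (adjusted p = 6.1e-04) under isoflurane and 3.01 (adjusted p = 0.0568) under propofol.

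Reads of Cxcl1, Cxcl2 and Cxcl3 can be assigned to the wrong copy because the genes are similar in sequence. Summed, their log2 fold change was 0.09 (adjusted p = 0.727) under isoflurane and 0.58 (adjusted p = 0.0480) under propofol, a sum dominated by Cxcl1 reads. Cxcl5, another Cxcr2 ligand and no member, measured 0.948, 1.35, 1.86 and 2.11 CPM in Isoflurane-Sepsis, with reads in 1 of the 4 control libraries. Its log2 fold change was 6.05 (SE 0.668, adjusted p = 2.2e-04) under isoflurane, a size that rests on 2 control reads, both in library 7: it was 8.18 without library 7 and 5.36 without library 8. Per read on genes the ratio was 82.6 (95% exact interval 22.3 to 690.7). Under propofol it had too few reads for the test, with 34 reads in septic and 2 in control libraries. The ratio there was 13.5 (95% exact interval 3.47 to 116.2), and the groups did not overlap. In the 3 alternative fits that could test Cxcl5 under propofol it passed (log2 fold change 3.56 to 3.82, adjusted p 0.00226 to 0.00816). The receptor Cxcr2 was low, between 0.594 and 1.97 CPM in the 16 libraries, and did not pass under isoflurane (log2 fold change 0.86, adjusted p = 0.0605) or propofol (0.25, adjusted p = 0.468).

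Neutrophil markers also rose with sepsis: of 11 listed genes measured 7 could be tested, and 5 of these rose and none fell, under each anesthetic. Among these 5 was Ngp, which had enough reads only through the septic libraries, so that a rise was favoured for it in advance. Of all tested genes, 25.7% rose under isoflurane and 20.4% under propofol. The summed level of the neutrophil markers was 17.6 to 20.5 CPM in Isoflurane-Control and 37.8 to 122.1 CPM in Isoflurane-Sepsis, and 18.5 to 25.3 CPM in Propofol-Control and 38.6 to 56.5 CPM in Propofol-Sepsis. Itgam, an integrin of myeloid cells, had log2 fold changes of 2.96 and 1.45, and S100a8, a calcium-binding protein of neutrophils and monocytes, of 2.49 and 1.09 under isoflurane and propofol. The granule genes Mpo and Elane, transcribed in neutrophil precursors, were at or near 0, with at most 0.0604 and 0.0975 CPM in any library. Other granule genes went up: Ngp, a granule protein, averaged 0.0390 CPM in Isoflurane-Control and 2.86 CPM in Isoflurane-Sepsis (log2 fold change 5.84, adjusted p = 2.1e-04), and 0.0757 and 2.18 CPM under propofol (4.66, adjusted p = 9.8e-05). Camp, an antimicrobial granule peptide named after its values were seen, was too low for the test, with averages of 0.0645 and 0.943 CPM in control and septic rats under isoflurane and 0.0400 and 0.544 CPM under propofol, and no overlap of libraries under either. The part of these cells in the Cxcl2 result was not tested.

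**Figure D2:**
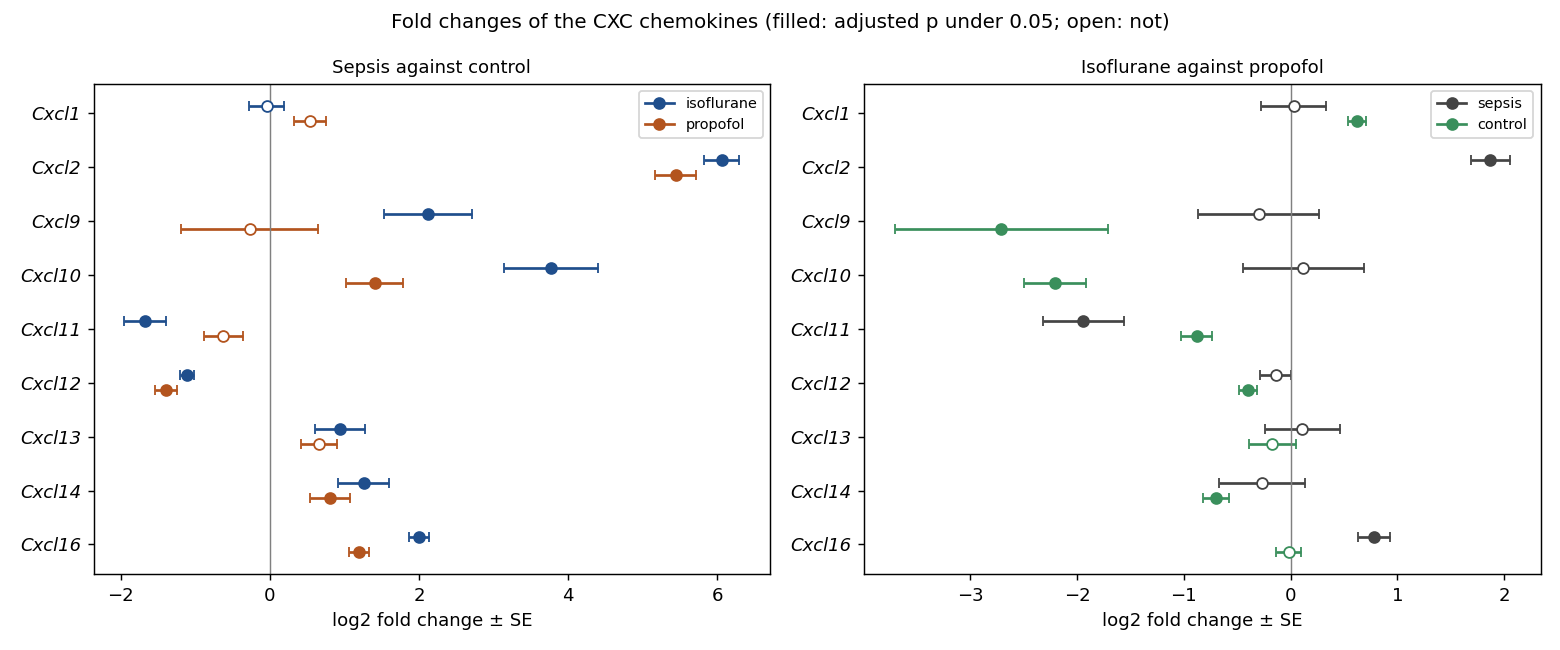
Log2 fold change ± SE of the members tested, for sepsis against control under each anesthetic (left) and for isoflurane against propofol within septic and control rats (right); filled points passed at adjusted p under 0.05 and open ones did not. Cxcl2 sits above 5 on the left under both anesthetics, and Cxcl12 sits below -1.

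Among the interferon-inducible ligands, Cxcl10 rose, Cxcl11 fell under isoflurane, and Cxcl9 rose under isoflurane by a size that depended on library 4. The Cxcl9 result under propofol depended on library 15. Cxcl10 measured 0.376, 0.148, 0.232 and 0.250 CPM in Isoflurane-Control and 0.948, 6.96, 3.78 and 2.42 CPM in Isoflurane-Sepsis. It measured 1.48, 1.40, 1.10 and 0.864 CPM in Propofol-Control and 1.98, 1.66, 5.40 and 3.80 CPM in Propofol-Sepsis. Septic libraries varied widely but each exceeded every control library of its anesthetic. The log2 fold change was 3.77 (SE 0.628, adjusted p = 0.00147) under isoflurane and 1.41 (SE 0.382, adjusted p = 0.0147) under propofol.

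Cxcl11, whose gene is a neighbour of Cxcl10, measured 1.60, 2.13, 2.14 and 2.27 CPM in Isoflurane-Control and 0.299, 0.838, 0.725 and 0.725 CPM in Isoflurane-Sepsis. It fell by 1.67 on the log2 scale (SE 0.279, adjusted p = 0.00149), with no overlap of the groups. In Propofol-Control it measured 3.28, 3.43, 3.86 and 4.47 CPM and in Propofol-Sepsis 3.28, 1.32, 2.94 and 2.34 CPM. The highest septic and the lowest control library were almost level, and the log2 fold change of -0.62 (SE 0.255, adjusted p = 0.0743) did not pass. Cxcl10 and Cxcl11 thus moved in opposite directions under isoflurane, each past the test.

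Cxcl9 measured 2.58, 2.42, 2.65 and 2.31 CPM in Isoflurane-Control and 4.89, 5.61, 4.97 and 28 CPM in Isoflurane-Sepsis. Its log2 fold change was 2.12 (SE 0.594, adjusted p = 0.0161); without library 4 it was 1.06 and still passed. Propofol-Control libraries held 2.96, 2.39, 55.7 and 2.21 CPM and Propofol-Sepsis libraries 8.93, 15.7, 15.2 and 13.4 CPM. Control library 15 was above every septic library, while the other 3 controls were below all of them. With all 8 libraries the log2 fold change was -0.27 (SE 0.913, adjusted p = 0.830), and without library 15 it was 2.40 (adjusted p = 2.0e-04). In library 15, Cxcl10 (1.10 CPM) and Cxcl11 (3.86 CPM) lay within the range of the other control libraries.

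The receptor shared by these ligands, Cxcr3, had between 4 and 14 reads in each library and was too low for the test. Ifng, the cytokine that induces Cxcl9, was represented by 1 read in all 16 libraries. Irf1, an interferon-inducible transcription factor, rose under isoflurane (log2 fold change 0.50, SE 0.177, adjusted p = 0.0402), a call lost without any 1 of 7 of the 8 libraries. Under propofol its log2 fold change was -0.02 (adjusted p = 0.924).

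Cxcl12, which retains and recruits cells that carry Cxcr4, was the member that fell under both anesthetics. It measured 73.4, 69.3, 77.6 and 70.9 CPM in Isoflurane-Control and 37.5, 34.7, 27.8 and 34.7 CPM in Isoflurane-Sepsis. It measured 86.5, 114.3, 86.4 and 97.8 CPM in Propofol-Control and 41.7, 27.7, 42.3 and 36.3 CPM in Propofol-Sepsis. Every septic library lay below every control library. On the log2 scale it fell by 1.11 (SE 0.0899, adjusted p = 6.3e-05) under isoflurane and by 1.39 (SE 0.143, adjusted p = 1.1e-04) under propofol.

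Cxcr7, a receptor that takes up and removes Cxcl12, went the other way. It measured 16.4, 18.6, 11.3 and 12 CPM in Isoflurane-Control and 40.3, 38.5, 49.5 and 45.1 CPM in Isoflurane-Sepsis. It measured 7.15, 4.37, 7.95 and 6.39 CPM in Propofol-Control and 26.2, 37.3, 27.9 and 28.5 CPM in Propofol-Sepsis. Septic and control libraries did not overlap, and the log2 fold change was 1.58 (SE 0.172, adjusted p = 2.1e-04) and 2.20 (SE 0.174, adjusted p = 3.8e-05). Cxcr4, the signaling receptor, did not pass under isoflurane (0.81, adjusted p = 0.126) or propofol (0.23, adjusted p = 0.455). Library 4 held its lowest level of all libraries, 3.62 CPM. Without library 4 the log2 fold change under isoflurane was 1.10 and passed (adjusted p = 0.00705), so that result depended on 1 library. Dpp4, a protease that inactivates Cxcl12, fell by 0.67 (adjusted p = 1.3e-04) and by 0.55 (adjusted p = 0.00175) on the log2 scale under isoflurane and propofol.

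**Figure D3:**
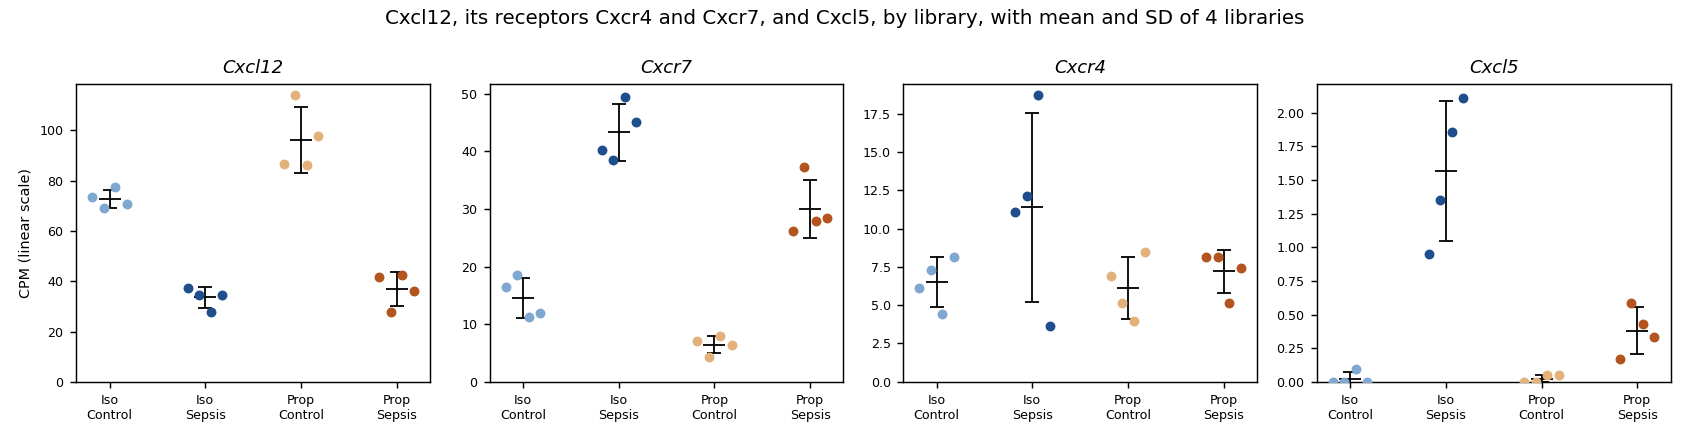
CPM (linear axis, a separate scale in each panel) of Cxcl12, its receptors Cxcr7 and Cxcr4, and the neutrophil attractant Cxcl5; points are libraries and bars are the mean ± SD of 4 libraries. Cxcl12 lay between 27.7 and 42.3 CPM in septic and between 69.3 and 114.3 CPM in control libraries, while Cxcr7 was higher in each septic library than in any control library.

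Cxcl16, a membrane-bound chemokine and scavenger receptor shed by the protease Adam10, rose with little spread. It measured 4.37, 5.00, 5.11 and 4.23 CPM in Isoflurane-Control and 16.1, 16.3, 19.3 and 22.8 CPM in Isoflurane-Sepsis. It measured 5.41, 5.06, 4.29 and 4.18 CPM in Propofol-Control and 9.89, 12.8, 11.3 and 9.43 CPM in Propofol-Sepsis. The control groups overlapped, and both septic groups lay above them without overlapping each other. The log2 fold change was 2.00 (SE 0.14, adjusted p = 3.9e-05) under isoflurane and 1.19 (SE 0.134, adjusted p = 1.7e-04) under propofol. Adam10 rose under propofol (0.30, adjusted p = 0.0171) and narrowly missed under isoflurane (0.27, adjusted p = 0.0502), and Adam17 did not pass under either (0.20, adjusted p = 0.235 and 0.06, adjusted p = 0.543). The receptor Cxcr6 had between 1 and 12 reads in each library and was too low for the test.

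Cxcl14, a chemokine made by epithelia and stroma, measured 2.07, 2.03, 1.77 and 2.02 CPM in Isoflurane-Control and 2.44, 3.03, 7.61 and 5.74 CPM in Isoflurane-Sepsis. All 4 septic libraries were higher, with a log2 fold change of 1.26 (SE 0.345, adjusted p = 0.0145). In Propofol-Control it measured 3.54, 3.09, 2.86 and 3.41 CPM and in Propofol-Sepsis 4.41, 9.26, 5.18 and 3.86 CPM. The log2 fold change was 0.81 (SE 0.265, adjusted p = 0.0335), with the highest level in library 10, which also held the brain transcripts. Cxcl14 is expressed in brain, and the part of that RNA in the result was not tested; without library 10 the log2 fold change was 0.47 and still passed. The call was lost without any 1 of the 4 control libraries (adjusted p 0.0552 to 0.0798).

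Cxcl13, the B cell attractant, measured 0.893, 1.34, 1.39 and 1.37 CPM in Isoflurane-Control and 1.85, 1.42, 2.12 and 4.29 CPM in Isoflurane-Sepsis. The log2 fold change of 0.94 (SE 0.338, adjusted p = 0.0440) passed narrowly, and the call was kept in 2 of the 8 fits that left out 1 library. It was lost without library 3, 4, 5, 6, 7 or 8, and the smallest log2 fold change of these fits was 0.53, without library 4 (adjusted p = 0.0795). It measured 1.03, 1.16, 1.71 and 1.68 CPM in Propofol-Control and 2.09, 2.49, 1.55 and 2.74 CPM in Propofol-Sepsis. These groups overlapped, and the log2 fold change was 0.66 (SE 0.246, adjusted p = 0.0555). Its receptor Cxcr5 rose under propofol (1.10, SE 0.298, adjusted p = 0.0147) and did not pass under isoflurane (-0.23, adjusted p = 0.538), on 3 to 49 reads in each library.

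**Figure D4:**
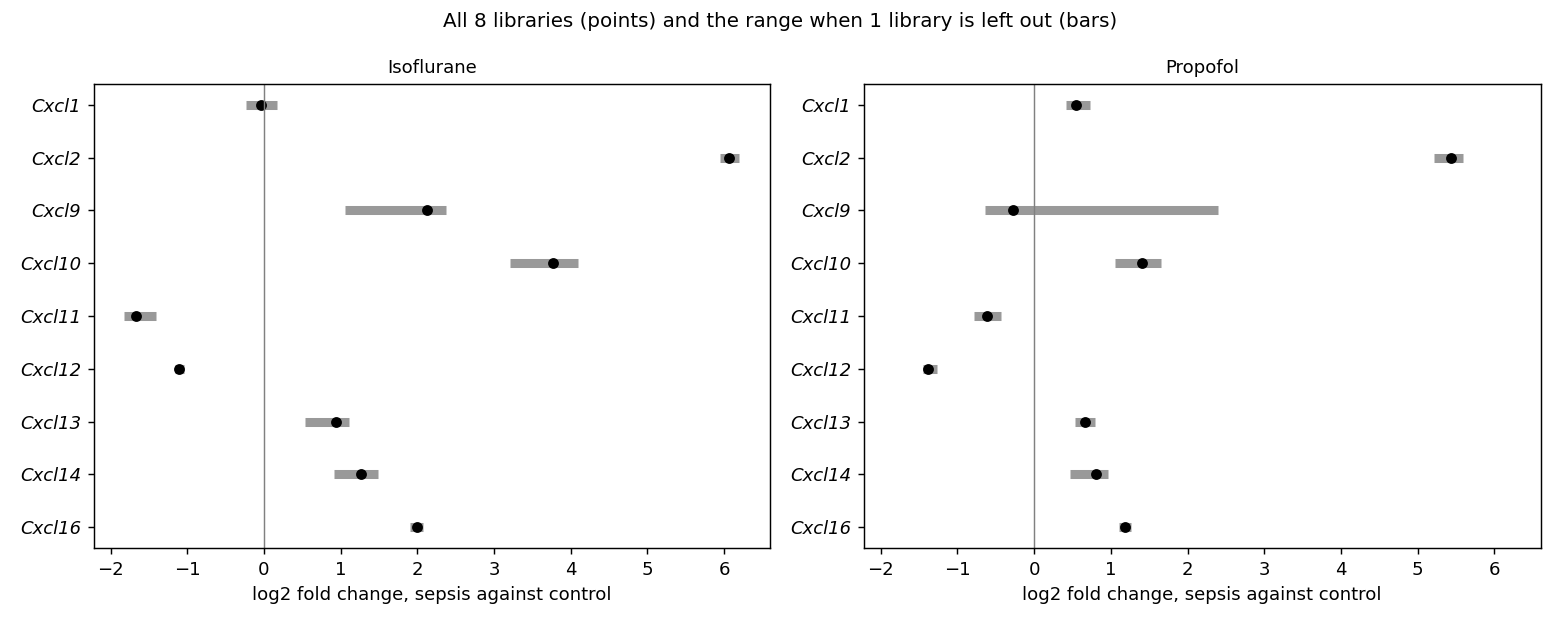
Log2 fold change of sepsis against control for each tested member with all 8 libraries (points) and its range when 1 library is left out at a time (bars), under isoflurane (left) and propofol (right). The bar of Cxcl9 under propofol runs from -0.64 to 2.40 and crosses 0, and those of Cxcl2, Cxcl12 and Cxcl16 are short.

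The next question was whether the anesthetics differed. In septic rats, 2 of the 9 tested members were higher under isoflurane and 1 lower, against 19.3% of all 10272 genes that passed in either direction. Cxcl2 was higher under isoflurane, with a log2 difference of 1.87 (SE 0.181, adjusted p = 0.00220), and so was Cxcl16, with 0.78 (SE 0.147, adjusted p = 0.0148). Cxcl11 was lower by 1.94 (SE 0.376, adjusted p = 0.0157) on the log2 scale. The Cxcl11 and Cxcl16 calls were each lost without library 9, 11 or 12 (adjusted p 0.0508 to 0.0595). Cxcl9 did not pass (-0.30, adjusted p = 0.721), but without library 4 it was lower under isoflurane, at -1.37 (adjusted p = 0.0120). Cxcl3 held 60 reads under isoflurane and 13 under propofol, and its ratio per read on genes was 5.24 (95% exact interval 2.84 to 10.4).

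In control rats, 1 of the 8 tested members was higher under isoflurane and 5 were lower, against 43.3% of all 10314 genes. Cxcl1 was higher (log2 difference 0.62, SE 0.0842, adjusted p = 2.5e-04). The largest lower value among calls that did not rest on 1 library was that of Cxcl10, -2.21 (SE 0.290, adjusted p = 2.0e-04), followed by Cxcl11 at -0.88 (SE 0.148, adjusted p = 9.2e-04), Cxcl14 at -0.70 (adjusted p = 0.00120) and Cxcl12 at -0.40 (adjusted p = 0.00398). Cxcl9 was also called lower, at -2.71 (SE 0.998, adjusted p = 0.0476), but without library 15 the difference was -0.02. Cxcl2, too low for the test in controls, was higher in each Isoflurane-Control library than in any Propofol-Control library (exact two-sided permutation p = 0.0286, the smallest that 4 against 4 allows). On 26 and 7 reads, its ratio per read on genes was 2.25, and the 95% exact interval of 0.952 to 6.15 covered 1. The 3 alternative fits that could test it did not pass (adjusted p 0.0584 to 0.161). The deposited files of the anesthetics carry different library-set names, so an effect of the set and an anesthetic effect cannot be told apart.

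Ranked by mean level, several members shared an order of the groups: Cxcl2 with Cxcl3, and Cxcl10 with Cxcl13 and Cxcl16. The order of the control groups was close to a tie for some of them. Isoflurane-Control and Propofol-Control averaged 0.0170 and 0.0146 CPM for Cxcl3 and 4.68 and 4.73 CPM for Cxcl16, with overlap in both. Cxcl2 ran from 16 CPM in Isoflurane-Sepsis through 4.39 in Propofol-Sepsis and 0.242 in Isoflurane-Control to 0.0971 in Propofol-Control, with no overlap at any step. Cxcl10 ran from 3.53 CPM in Isoflurane-Sepsis through 3.21 in Propofol-Sepsis and 1.21 in Propofol-Control to 0.252 in Isoflurane-Control, and its 2 highest groups overlapped. Cxcl12 ran the other way, from 96.2 CPM in Propofol-Control and 72.8 in Isoflurane-Control to 37.0 in Propofol-Sepsis and 33.7 in Isoflurane-Sepsis, and its 2 lowest groups overlapped. Every neighbouring pair overlapped for Cxcl1 and for Cxcl13.

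Whether the response to sepsis itself differed between the anesthetics was tested as an interaction in all 16 libraries. Of the 9 tested members 1 passed, against 2.72% of all 10621 genes. It was Cxcl16, whose log2 response was larger under isoflurane by 0.80 (SE 0.193, adjusted p = 0.0424), and the call was kept in 5 of the 16 fits that left out 1 library. Cxcl10 had the next smallest adjusted p, with a difference of 2.34 (SE 0.766, adjusted p = 0.0937), which passed in DESeq2 (adjusted p = 0.0329) and without library 1 (adjusted p = 0.0141). Cxcl11 differed by -1.06 (SE 0.396, adjusted p = 0.131) and passed without library 10 (adjusted p = 0.0467). For Cxcl2 the difference of 0.60 (SE 0.548, adjusted p = 0.583) was close to its error.

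Of 19 tested regulators of CXC genes, 12 rose and 2 fell under isoflurane, and 9 rose and 3 fell under propofol, with median log2 fold changes of 0.65 and 0.26. Il1b, a cytokine that induces neutrophil attractants, had log2 fold changes of 3.70 and 2.36, and Tnf of 4.04 and 1.90. Tnf averaged 0.0801 CPM in Isoflurane-Control and 1.42 CPM in Isoflurane-Sepsis, and 0.656 and 2.50 CPM in the propofol groups. Its larger fold change under isoflurane thus went with a lower control level and not with a higher septic one. Nfkb2, an NF-kB subunit, had 1.61 and 1.76. Zc3h12a, an RNase that degrades cytokine transcripts, rose by 0.89 (adjusted p = 2.2e-04) and 1.53 (adjusted p = 1.7e-04), while Zfp36, which destabilizes such transcripts, did not pass under isoflurane (0.06, adjusted p = 0.904) and fell by 0.50 (adjusted p = 0.00820) under propofol. Of 13 tested enzymes and proteoglycans that act on CXC chemokines, 5 rose and 2 fell under isoflurane, and 4 rose and 2 fell under propofol. The shares of all tested genes that passed were 50.0% and 42.1%, and the enzyme and proteoglycan counts were close to them.

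Markers of macrophages and Kupffer cells, which can make most of these chemokines, were mixed. Of 12 tested, 8 rose and 1 fell under isoflurane, and 4 rose and 1 fell under propofol. Their summed level was 434 to 536.3 CPM in Isoflurane-Control and 534.8 to 714.3 CPM in Isoflurane-Sepsis, and 531.2 to 579.6 CPM in Propofol-Control and 522.2 to 615.2 CPM in Propofol-Sepsis. Emr1 (F4/80) had log2 fold changes of 1.70 and 0.95, and Clec4f, a Kupffer cell lectin, of -0.60 and -0.82. Of 11 tested endothelial markers 5 fell and 2 rose under isoflurane, and 2 fell and 3 rose under propofol. Of 11 tested stellate cell and fibroblast markers, 5 rose and 1 fell, and 2 rose and 3 fell. Of all tested genes, 50.0% passed under isoflurane and 42.1% under propofol. The stellate cell and fibroblast counts, and the propofol counts of the macrophage and endothelial lists, were close to these shares. The part of cell composition in the members' changes was not tested.

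The genes most like each member were taken as those with the smallest root mean square difference in centred log2 CPM over the 16 libraries, as a description. Cxcl2 was nearest to Ptx3, a pentraxin of innate immunity (0.72), Tifa (0.78) and Havcr1 (0.81), with its own standard deviation at 2.64. Cxcl10 was nearest to Cst7 (0.59), Tnf (0.61) and Tgm1 (0.72). Cxcl9 was nearest to Ltb (0.79) and Gbp5 (0.84), and Cxcl12 to Ocrl (0.19), Prkab1 (0.20) and Akr1c19 (0.20). Cxcl16 was nearest to Hivep2 (0.22), Tmem2 (0.23) and Rhoj (0.23). The member nearest to Cxcl2 was Cxcl16, at 1.83, and the one nearest to Cxcl10 was also Cxcl16, at 1.04.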

How the data were processed

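Poly(A) RNA of pooled rat liver was sequenced with a directional library kit, and the authors deposited raw read counts per gene symbol; their notes name STAR and rn5, while the sources used here name no counting program or annotation. Entries that name no gene (21.6 to 25.4% without a feature, 1.07 to 1.35% ambiguous) were left out. Groups came from the sample labels, with 4 libraries each. Genes passed filterByExpr (minimum count 10, minimum total 15) and were tested with edgeR 4.0.16 (TMM, quasi-likelihood) in R 4.3.3, each comparison on its own 8 libraries and the interaction on all 16; the code was tested on simulated data. CPM used TMM over 16 libraries. Standard errors are the log2 fold change over the square root of F. DESeq2 1.42.0 and limma 3.58.1 (voom) were alternatives, as were other scalings, no filter, thinned counts, 1 fit of all libraries and leaving out each library. The named genes were the 10 members, CXC receptors and ligands, regulators and enzymes bearing on a member, at most 4 genes of each other list by smallest adjusted p, and the 3 nearest genes by pattern; 2 genes under this rule are not reported here. Members and lists were chosen with earlier results of these data known. Libraries of a group differed by more than counting noise (chi-square per degree of freedom at least 3.35), so none was a duplicate. Whether pools shared a batch is not known.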

Additional observations from a re-analysis of the deposited data

Results flagged for a closer look

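In groups of 4 libraries, a single library stood apart (its gap to the nearest library over the group's range passed Dixon's 95% critical value) in 5 of 37 member and group combinations with at least 10 reads, where chance flags about 1 in 20. Cxcl9 was 28 CPM in library 4 (Isoflurane-Sepsis) and 55.7 CPM in library 15 (Propofol-Control), each far above the other 3 of its group. In Isoflurane-Control, Cxcl1 was 158.1 CPM and Cxcl14 1.77 CPM in library 7, and Cxcl13 was 0.893 CPM in library 5; each was below the other 3 of its group. The response of Cxcl16 to sepsis was larger under isoflurane than under propofol by 0.80 on the log2 scale, a difference tested as an interaction (edgeR adjusted p = 0.0424).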

How the results depend on the processing

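Over 762 alternative fits of 44 member results, 682 kept the direction and the side of the threshold, 44 lost a call, 11 gained one and 25 changed sign. No paired analysis was possible because library numbers run from 1 to 16 and no groups share one. Scaling by library totals alone moved the median of all genes by -0.15 in both comparisons of the anesthetics, and lowered the share of calls that were higher from 55.1 to 21.4% in septic and from 49.8 to 22.9% in control rats; under isoflurane and propofol sepsis the share went from 51.3 to 43.0% and from 48.4 to 38.3%. Cxcl9 under propofol was 1.15 in voom (adjusted p = 0.272), from -0.64 to 2.40 with 1 library left out, and 2.32 without libraries 10 and 15, an alternative chosen after seeing the data; the adjusted p over all alternatives ran from 7.2e-05 to 0.930, and DESeq2 gave none. Between anesthetics in sepsis, library totals gave -0.12 for Cxcl1, -0.02 for Cxcl10 and -0.04 for Cxcl13, and voom gave -0.13 for Cxcl10 and -0.02 for Cxcl13. Leaving out 1 library gave ranges that cross 0 for Cxcl1 under isoflurane sepsis (-0.23 to 0.17), for Cxcl1 (-0.16 to 0.23), Cxcl10 (-0.43 to 0.48), Cxcl13 (-0.31 to 0.29) and Cxcl14 (-0.61 to 0.08) between anesthetics in sepsis, for Cxcl16 between anesthetics in controls (-0.08 to 0.05), and in the interaction for Cxcl9 (-0.29 to 2.75) and Cxcl13 (-0.14 to 0.46). The number of members called was 1 to 4 between anesthetics in sepsis, and 0 to 2 in the interaction, when 1 library was left out; the interaction gave 2 in DESeq2 and 0 in voom. The cause of these changes was not tested. Members under about 1 CPM rest on few reads per library.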
